A study of Drosophila melanogaster with 3 samples.

Results

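The nuclear genes of the respiratory chain were examined for regions that co-precipitated with Sox100B-GFP in Drosophila melanogaster embryos. The genes were the protein-coding genes of the Ensembl annotation on the 6 nuclear arms whose symbol starts with ND-, COX, UQCR-, ATPsyn or Sdh, and 88 of 13945 genes met this rule. They comprised 40 genes of complex I, 8 of complex II, 9 of complex III, 16 of complex IV and 15 of complex V. By symbol, 24 were paralogs whose name is that of a main subunit with an added L, 1 was an assembly factor of complex II (Sdhaf3), and the remaining 63 are called main subunits here. ND-MNLL, whose symbol ends in L without a gene of the shorter name, counts as a main subunit. The symbol rule does not reach every gene of the chain, and 14 genes with other symbols, of the chain or linked to it, are described separately.

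Whole embryos of both sexes, aged 6 to 16 h, came from a transgenic line in which GFP is fused to the C terminus of Sox100B, a group E Sox transcription factor. Chromatin sheared by sonication to 200 to 800 bp was immunoprecipitated in 3 biological replicates of 1 group, so no condition is compared, and the control experiment listed in the labels was not analysed here. The labels disagree, since a free-text line calls each sample an input control and the antibody field names Sox100B, and the antibody field was followed. Each replicate and the pool gave a list of 30000 regions, mostly background by design, of which 8532, 10358 and 8146 had a q-value under 0.05 in replicates 1, 2 and 3. The authors' list of 5683 regions that passed an irreproducible discovery rate threshold (the IDR list) consists of the top-ranked regions of the pool by signal. Read depth is unknown, and since whole embryos mix many cell types, few cells with strong binding and many cells with weak binding cannot be told apart.

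The respiratory chain sits in the inner mitochondrial membrane. Complexes I and II pass electrons from NADH and succinate to ubiquinone, complex III passes them to cytochrome c, complex IV reduces oxygen, and complex V, the ATP synthase, uses the resulting proton gradient. Most subunits are encoded in the nucleus and a few in mitochondrial DNA. Many Drosophila chain subunits have a duplicated gene, and such duplicates are often expressed mainly in the testis.

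A gene is called marked when a region has its summit inside the gene or within 1 kb upstream of its start. Of the 7 sequences shown here, 3 hold the NRG element near the summit of a marked gene, and the others hold the site of the promoter factor DREF, the Sox core or the strongest summit. Each runs 5′ to 3′ on the strand of the named gene, in release 6 of the genome (dm6), and spans up to 75 bases on either side of the summit of the IDR list, cut short where an annotated UTR begins. Capitals mark matches on either strand to the Sox core (written ACAAAG or else with the letters ACAATG), the DNA replication-related element (DRE, TATCGATA), the nuclear respiratory gene (NRG) element (TTATATAA, TTATGTAA, TTACATAA or TTACGTAA) and TATAAA. The site of the GAGA factor (GAGAG) was also searched, as was the E-box (CACGTG). At ND-SGDH the NRG element overlaps 2 TATAAA matches. The windows are chrX:6679290-6679440, chr3L:12138585-12138710 and chrX:7893799-7893940 on the minus strand, chr4:1032003-1032153 on the plus strand, and chr3R:11210038-11210188, chr3L:21539522-21539672 and chr3R:15837177-15837327 on the minus strand.
ND-ASHI: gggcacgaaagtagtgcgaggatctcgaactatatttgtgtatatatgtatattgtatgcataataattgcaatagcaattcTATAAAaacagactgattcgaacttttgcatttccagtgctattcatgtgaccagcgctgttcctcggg
ND-SGDH: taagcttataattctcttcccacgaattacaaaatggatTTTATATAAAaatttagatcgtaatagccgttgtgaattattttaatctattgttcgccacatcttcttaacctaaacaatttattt
ND-MNLL: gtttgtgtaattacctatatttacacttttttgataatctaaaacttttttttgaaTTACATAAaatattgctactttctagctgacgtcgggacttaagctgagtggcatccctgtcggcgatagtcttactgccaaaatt
ATPsynbeta: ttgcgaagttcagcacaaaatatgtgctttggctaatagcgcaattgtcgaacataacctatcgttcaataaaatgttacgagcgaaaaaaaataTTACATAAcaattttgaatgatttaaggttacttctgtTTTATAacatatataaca
SdhC: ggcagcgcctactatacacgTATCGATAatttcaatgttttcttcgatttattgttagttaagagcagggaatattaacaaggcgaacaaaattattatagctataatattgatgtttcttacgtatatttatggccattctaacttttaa
COX8: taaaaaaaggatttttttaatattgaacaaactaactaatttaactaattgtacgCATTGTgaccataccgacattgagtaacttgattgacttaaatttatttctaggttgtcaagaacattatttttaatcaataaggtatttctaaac
ND-23: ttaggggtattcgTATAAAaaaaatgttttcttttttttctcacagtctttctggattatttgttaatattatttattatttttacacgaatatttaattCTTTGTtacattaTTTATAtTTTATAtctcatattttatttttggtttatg

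With a gene's own window, the share of main subunits that were marked lay above that of other genes of their length, and the share of L-suffixed paralogs below it, in each of the 3 replicates. The result for paralogs did not hold when each region was given only to the gene with the nearest start, at whatever distance. In the IDR list 17 of the 88 genes were marked (19.3%), where 22.3% of all protein-coding genes were. Respiratory chain genes are short, with a median length of 1097 bp against 2166 bp for all genes, and the share of other genes in the same length classes was 13.1%, which corresponds to 11.5 genes. Of the 63 main subunits 16 were marked (25.4%) where 8.86 corresponded to their length. Of the 24 paralogs 1 was marked (4.17%) where 2.60 did. Giving each region to the nearest start instead, with no limit on distance, marked 13 main subunits, where 9.36 corresponded to length, and 4 paralogs, where 3.07 did. The paralogs gained were ND-20L, ND-24L and UQCR-6.4L, whose nearest IDR summits lay 3006, 9237 and 387 bp outside their windows. With summits within 1 kb of a start, 2 paralogs were marked, where 2.66 corresponded to length. The count for main subunits was therefore close to the unweighted share of all genes and above the length-weighted one. A total of 4275 IDR regions were overlapped by the strongest 5683 regions of both replicate 1 and replicate 3. Among these the counts were 10 genes and 9 main subunits, where 9.39 and 7.27 corresponded to length.

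The replicate lists gave the same order. Regions with a q-value under 0.05 marked 22, 26 and 27 of the 88 genes in replicates 1, 2 and 3, where 29.4%, 32.7% and 30.2% of all genes were marked. Their mean share was 28.4% ± 3.01 (SD, n = 3) and that of other genes of the same length 19.5% ± 1.35. Among main subunits 21, 24 and 26 were marked, a mean of 37.6% ± 3.99 against 20.8%. The difference of 16.7 ± 3.77 percentage points (SD, n = 3) was positive in 3 of 3 replicates (exact two-sided sign-flip permutation test, p = 0.25, the smallest that 3 replicates allow). Among paralogs 1, 2 and 1 were marked, a mean of 5.56% ± 2.41 against 16.3%, and the difference of -10.7 ± 1.38 points was negative in 3 of 3 replicates (exact p = 0.25). Main subunits exceeded paralogs by 29.2, 29.8 and 37.1 points, a mean of 32.0 ± 4.42 (SD, n = 3; exact sign-flip p = 0.25). The design cannot pass a threshold of 0.05, and the replicates share the genes compared. With each region given to the nearest start, an alternative chosen after seeing the data, the mean share of main subunits was 27.0% ± 2.75 (SD, n = 3) against 21.6%, above in 3 of 3 replicates. That of paralogs was then 20.8% ± 4.17 against 18.8%, above in 2 of 3 replicates and below in 1.

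**Figure D1:**
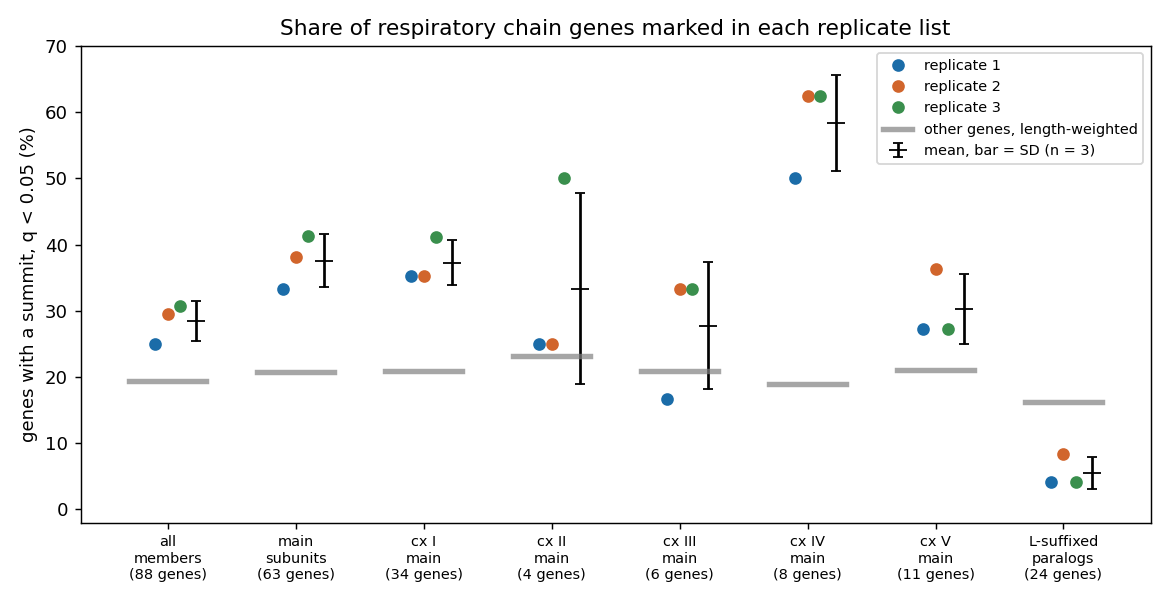
Share of genes (y axis, percent) with a summit of q under 0.05 in each replicate list, for all 88 respiratory chain genes, main subunits, main subunits of each complex (cx) and paralogs. Coloured points are replicates, black bars the mean with SD (n = 3) and grey lines the mean share of other genes of the same length. Main subunits lie above their grey line in all 3 replicates, with complex IV highest at 58.3%, and paralogs lie below theirs at 5.56%.

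In the pooled list the counts followed the same pattern. Regions with a q-value under 0.05 marked 22 of the 88 genes, where 29.0% of all genes were marked and 15.8 genes corresponded to their length. They marked 20 main subunits and 2 paralogs. Over all 30000 pooled regions, background included, 35 of the 88 were marked, where 41.8% of all genes were and 26.6 genes corresponded to length. These were 30 main subunits and 5 paralogs. A summit with a q-value under 0.05 in all 3 replicate lists was found at 19 of the 88 genes, where 23.5% of all genes had one and 12.01 genes corresponded to length. Of these, 16 were also marked in the IDR list.

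By complex, the share of marked main subunits in the IDR list and in the replicate lists was highest for cytochrome c oxidase, an order that other lists did not keep. In the IDR list 9 of 34 main subunits of complex I were marked (4.85 by length), 1 of 4 of complex II (0.631), 1 of 6 of complex III (0.839), 3 of 8 of complex IV (1.01) and 2 of 11 of complex V (1.54). In the order of the complexes these were 26.5%, 25%, 16.7%, 37.5% and 18.2%, where 22.3% of all genes were marked. In the replicate lists 29.4%, 32.7% and 30.2% of all genes were marked. There 4, 5 and 5 of the 8 complex IV main subunits were marked, a mean of 58.3% ± 7.22 (SD, n = 3) against 18.9% of other genes of their length. For complex I the mean was 37.3% ± 3.40 against 20.9%, and for complex V it was 30.3% ± 5.25 against 21.0%. Differences for complexes II and III were 10.2 ± 14.9 and 6.86 ± 8.35 points, smaller than their SD (n = 3). With the strongest 2841 regions of the IDR list, among them that of COX8, 1 of 8 complex IV main subunits was marked (12.5%), where 15.2% of all genes were. Likewise 1 of 8 was marked among IDR regions found again in both other replicates when replicate 2 or 3 was left out. Of all genes 18.7% and 18.9% were then marked. The share of complex IV was below that of complex I in each case. Over all 30000 pooled regions the shares of complexes II (4 of 4) and V (6 of 11, 54.5%) exceeded that of complex IV (4 of 8, 50%). These regions marked 41.8% of all genes. With so few genes per complex, the shares are descriptions, and differences between complexes were not tested.

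Complex I takes electrons from NADH, and 9 of its main subunits were marked in the IDR list. The strongest region among the 88 genes lay 247 bp upstream of ND-ASHI (chrX:6677262-6679118, minus strand), an accessory subunit of the membrane arm, with rank 787 of 5683 and a signal of 737. The same summit lay in an intron of the neighbouring Fum1, which encodes the citrate cycle enzyme fumarase. It was overlapped by a region of rank 783 in replicate 2 and of rank 1093 in replicate 3, and by none in replicate 1. Replicate 1 instead had a weaker region 31 bp upstream of the ND-ASHI start, at rank 6813. The strongest summit in the windows of these genes was thus seen in 2 of 3 replicates.

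The next complex I regions ranked alike in the replicates. ND-SGDH, another accessory subunit of the membrane arm, had its summit 51 bp upstream (IDR rank 1604, signal 461), and its rank was 2547 in replicate 1, 1354 in replicate 2 and 1919 in replicate 3. A second region 890 bp upstream ranked 2248, with 2508, 1975 and 3523 in the replicates, and lay nearer to the start of RhoGAP68F. ND-24 encodes a core subunit that carries an iron-sulphur cluster. Its summit lay in the 5′ UTR, 71 bp past the start (rank 1830, signal 422), and the replicates ranked it 2173, 1820 and 2177. ND-23, also a core iron-sulphur subunit, had a summit 135 bp upstream at rank 2597 and replicate ranks of 2222, 3236 and 2921. All of these lay within the strongest 5683 regions of every replicate.

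The other marked complex I genes had 1 summit each. That of ND-MNLL, a small accessory subunit, lay 67 bp upstream, as far from its start as from that of CG45089, at rank 3110 with 4005, 3751 and 3076 in the replicates. ND-B22 had a summit 62 bp upstream (rank 4040) with no other gene's window around it, and ranked 5575, 4846 and 4986. ND-13B had a summit 39 bp upstream (rank 4313), and its replicate 3 region, at rank 6452, lay below the strongest 5683. The remaining summits lay in introns away from the gene's start: that of ND-39, stronger than the summit of ND-23, was 1474 bp into the gene and 66 bp from the start of the zinc transporter gene ZnT77C (rank 2364), and that of ND-15, a gene of 41305 bp, was 3247 bp in and 1485 bp from the start of CG13694 (rank 3507). Of the 7 core subunits of complex I that nuclear genes encode, 2 were marked (28.6%). Of the other 27 main subunits 7 were (25.9%), where 22.3% of all genes were marked. These shares were not weighted by length, and their difference was not tested.

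Complex II, succinate dehydrogenase, belongs to both the chain and the citrate cycle, and only SdhC (chr3R:11208887-11209849, minus strand), which encodes a membrane anchor, was marked among its genes. Its summit lay 264 bp upstream and 134 bp from the start of Tctp (rank 2227, signal 368), and the replicates ranked it 2534, 2354 and 3209. The gene of the flavoprotein subunit, SdhA, had an IDR summit of rank 3374 only 26 bp outside its window. All 4 main subunits of this complex had some region in the pooled list when background was included. In complex III, UQCR-14 was the one marked gene. Its summit, 878 bp upstream, was near the foot of the IDR list (rank 5634, signal 173), and ranked 9184, 4886 and 7723 in the replicates, with a q-value under 0.05 in replicates 2 and 3.

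Just outside the list stood UQCR-Q, with a pooled region at rank 5692 and replicate ranks of 4975, 8929 and 5458. The IDR list ends at rank 5683 and signal 172.1, and the region of UQCR-Q had a signal of 171.9. The values just inside and just outside thus differ little, and UQCR-Q had a q-value under 0.05 in 3 of 3 replicates while UQCR-14 did in 2.

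In complex IV, COX8 (chr3L:21538859-21539447, minus strand), which encodes a small structural subunit of cytochrome c oxidase, had the strongest summit. It lay 150 bp upstream (rank 1877, signal 415), in sequence shared with the V-ATPase gene VhaM9.7-b, and the overlapping regions ranked 2558, 1948 and 1883. A second IDR region, 349 bp upstream and 66 bp from the start of VhaM9.7-b, ranked 2949, and it overlapped the same replicate regions, so these 2 are not separate loci in the replicates. COX5B, a matrix-side subunit, had a summit 215 bp upstream and 83 bp from the start of IFT52 (rank 4245), with replicate ranks of 5705, 4297 and 5021. COX7B had a summit 59 bp upstream (rank 4561), with replicate ranks of 7120, 3896 and 6244. COX8 ranked above both in every replicate, and the regions of COX5B in replicate 1 and of COX7B in replicates 1 and 3 fell below rank 5683.

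COX5A (chr3R:11819359-11820299, plus strand), a matrix-side subunit of complex IV, was marked in every replicate and absent from the IDR list. Regions at its start ranked 3255, 3242 and 2150 in replicates 1, 2 and 3, with signals of 80.2, 132 and 117 and summits 112 bp upstream, 111 bp downstream and 111 bp downstream. The pooled list holds no region in its window, with background included. Across the genome 4222 regions of replicate 3 were among the strongest 5683 of all 3 replicates, and 94 of them (2.23%) were overlapped by no region of the pooled list; among respiratory chain genes COX5A was the one with such a locus in its window. Regions at ND-MWFE (ranks 1829 and 1138 in replicates 2 and 3) and ND-42 (rank 1070 in replicate 2) also had no pooled counterpart, and these genes had no region in the other replicates. The cause was not tested, and absence from the IDR list is not absence from the replicates.

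In complex V, 2 main subunits were marked. ATPsynCF6 encodes coupling factor 6 of the stalk, and its summit 157 bp upstream lay 57 bp from the start of Sec13, a coat protein gene (rank 2239, signal 366); the replicates ranked it 3050, 2277 and 2391. ATPsynbeta (chr4:1031484-1034917, plus strand) encodes the catalytic subunit and is one of 2 respiratory chain genes on chromosome 4. Its summit lay in an intron, 214 bp past a start (rank 4358), and it ranked 2575, 7373 and 6671 in the replicates, an SD of 2591 that was the largest among the marked genes with 3 overlapping regions. ATPsynE had no IDR summit, but ranked 8000 in replicate 1 and 2358 in replicate 2, with no region in replicate 3, and an IDR summit of rank 1001 lay 107 bp outside its window.

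**Figure D2:**
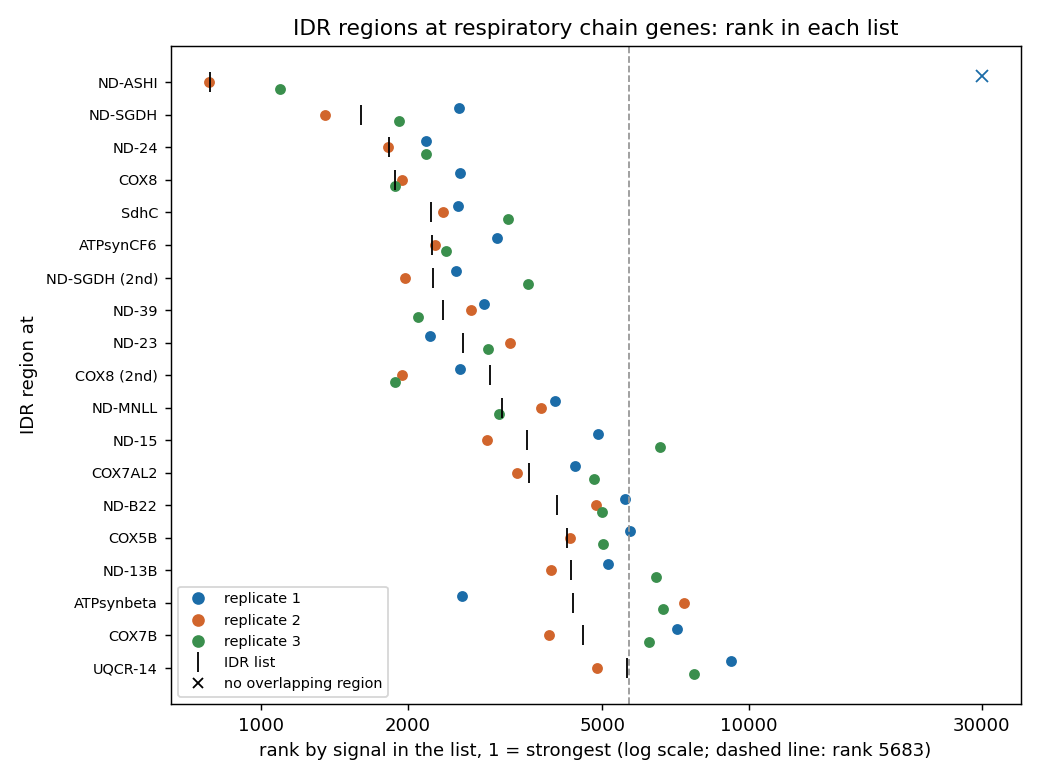
Rank by signal (x axis, log scale, 1 is strongest) of each IDR region at a respiratory chain gene (y axis) in the IDR list (black bar) and of the strongest overlapping region in replicates 1, 2 and 3 (coloured points; a cross marks no overlapping region). Of 19 regions, 18 are overlapped in all 3 replicates, the exception being ND-ASHI, and 12 lie left of the dashed line at rank 5683 in all 3. The IDR list was selected for reproducibility, and the same shares over all its regions were not counted. The label (2nd) marks the weaker region of a gene with 2 of them.

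Most of the summits lay just upstream of a start and in sequence that another gene shares. The strongest summit lay upstream in 12 of the 17 marked genes (70.6%), against 50.7% of all marked genes, and at a median distance of 157 bp from the nearest annotated start of the gene against 327.5 bp. It lay within 200 bp of that start in 9 of 17 (52.9%) against 31.7%. The summit also fell in the window of another gene in 15 of 17 (88.2%) against 48.6%, the exceptions being ND-B22 and COX7AL2. None of these comparisons was matched on gene length, and upstream sequence makes up more of the window of a short gene. Of the 19 regions 7 were nearer to the start of another gene than to that of the respiratory chain gene. Which gene of a pair a region serves cannot be told from its position.

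**Figure D3:**
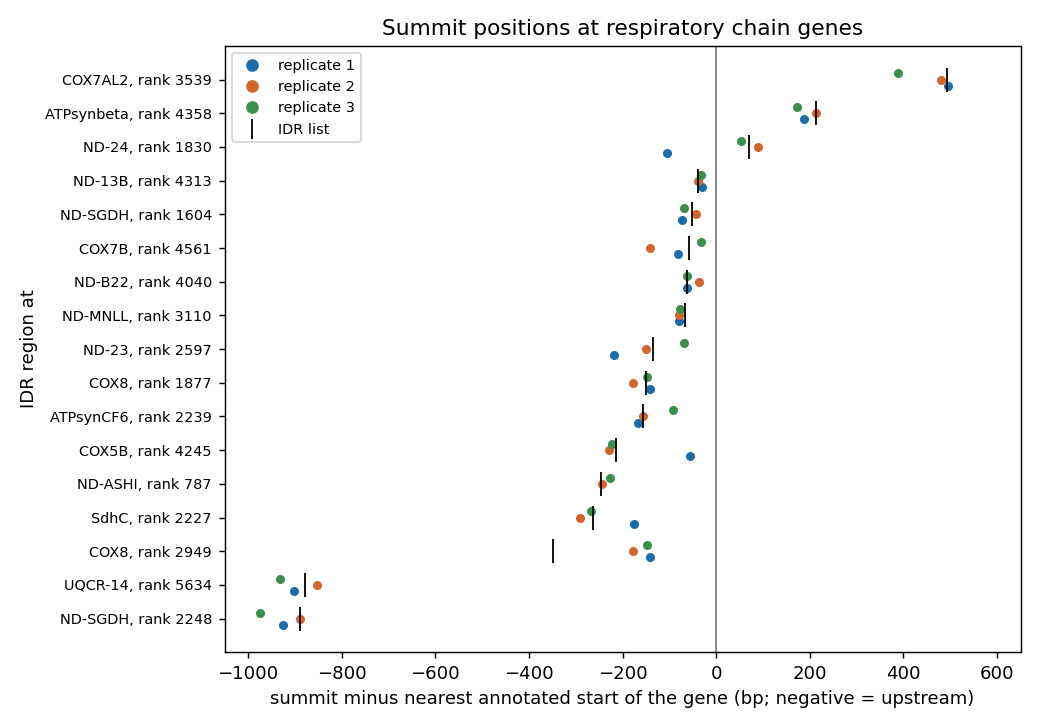
Summit position relative to the nearest annotated start of the gene (x axis, bp, negative is upstream) for 17 of the 19 IDR regions at respiratory chain genes (y axis, with the rank in the IDR list); black bars are IDR summits and coloured points the overlapping regions of replicates 1, 2 and 3. Of the 19 regions 14 lie upstream, 12 of them within 400 bp; the intronic summits of ND-39 and ND-15, 1474 and 3247 bp into the gene, are off the scale.

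The arrangement of the genes differed between main subunits and paralogs. Another gene started within 1 kb in the opposite direction, upstream, at 33 of 63 main subunits (52.4%), 4 of 24 paralogs (16.7%) and 33.4% of all genes. In the IDR list 9 of those 33 main subunits were marked (27.3%), where 28.7% of all genes with such a neighbour were, and 7 of the other 30 (23.3%), where 19.0% were. No test was made on these counts. The marked genes were of middling strength: the median IDR rank was 3110 against 1772 for all marked genes, and 8 of 17 (47.1%) lay among the strongest 2841 of its regions against 68.1%. Each gene entered with its strongest summit, and a longer gene can hold more summits to choose from. These values were not matched on gene length.

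Over the chromosome arms, the marked genes were spread over 2L (4 of 16), 3L (5 of 20), 3R (3 of 20), 4 (1 of 2) and X (4 of 13), where 23.6%, 24.6%, 21.6%, 26.3% and 23.2% of all genes on these arms were marked. None of the 17 respiratory chain genes on 2R, 11 of them main subunits, was marked in the IDR list, where 18.7% of all genes on that arm were. The replicates marked 0, 2 and 3 of the 11 main subunits there, among them ND-MWFE and COX7C in 2 replicates each. The arms were not compared by a test.

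Of the 24 L-suffixed paralogs, 14 had no region in any replicate or pooled list, background included, where 12.4 corresponded to their length. Of the 63 main subunits 20 had none, where 30.0 did, and of all genes 38.3% had none. Of these paralogs COX7AL2 (chr2L:2192525-2197912, minus strand) alone was marked in the IDR list. Its summit lay in the 5′ UTR, 493 bp past the start (rank 3539, signal 258), the overlapping regions ranked 4388, 3340 and 4808, and no other gene's window held it. The main gene COX7A had no region in any list. ATPsynepsilonL had a region with a q-value under 0.05 in replicate 2 alone (rank 8110), and UQCR-6.4L had one in the pooled list (rank 9545) but in no replicate.

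For a view by pairs, the 24 paralogs were set beside 21 main genes, of which 18 belong to the 88 and 3 (levy, cype and sun) carry other symbols. Both genes were marked in 0 pairs, the main gene alone in 6, the paralog alone in 1 and neither in 17. With 1 marked paralog in all, the 0 says little about the pairs. The 6 main genes were ATPsynCF6, ATPsynbeta, COX5B, ND-24, SdhC and UQCR-14. ATPsynbeta ranked 2575, 7373 and 6671 in the replicates and ATPsynbetaL had no region; SdhC ranked 2534, 2354 and 3209 and SdhCL had none; COX5B ranked 5705, 4297 and 5021 while COX5BL ranked 27988, 20971 and 22782, within the background part of the lists. Main subunits without a paralog were marked in 10 of 45 cases and those with one in 6 of 18, where 22.3% of all genes were. These counts were not weighted by length, and their difference was not tested. Paralogs are shorter, with a median of 744 bp against 1178 bp, which the length classes take into account, and fewer of them have a divergent neighbour.

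**Figure D4:**
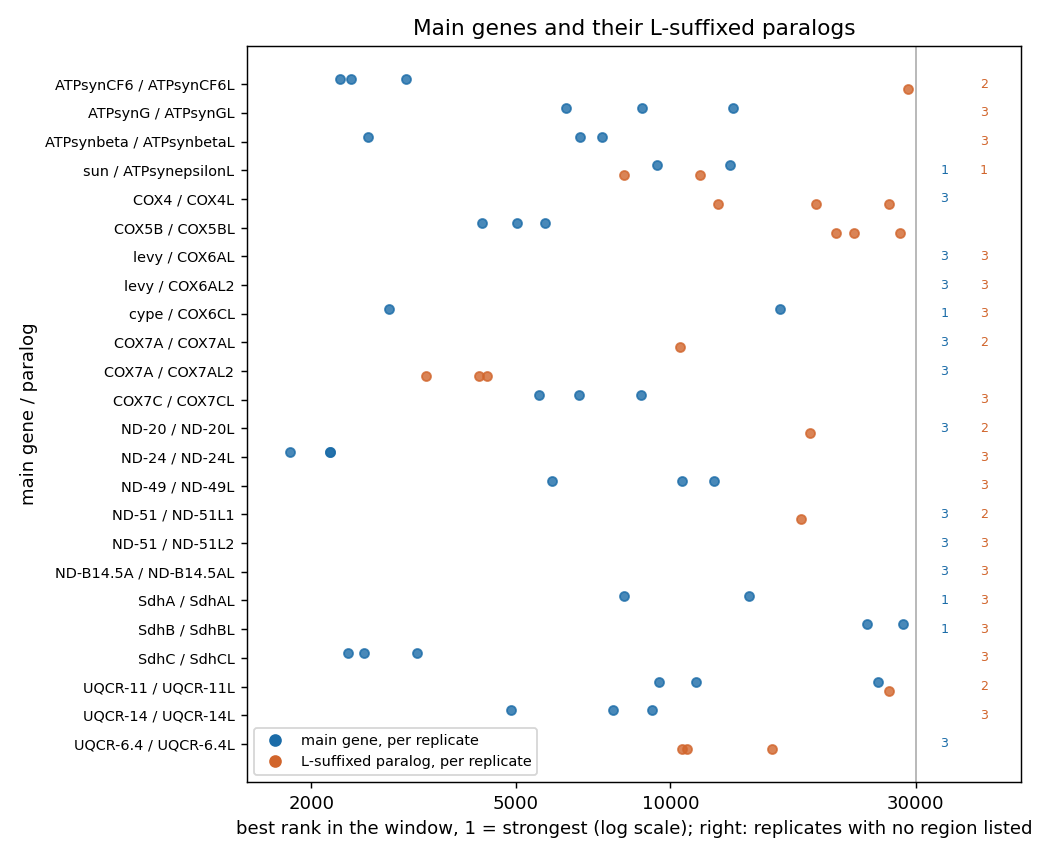
Best rank by signal in the gene's window (x axis, log scale, 1 is strongest) in each replicate for each pair of a main gene (blue) and its L-suffixed paralog (orange) on the y axis. Numbers at the right give how many of the 3 replicates list no region, blue for the main gene and orange for the paralog. COX7AL2 is the one paralog whose points all lie among those of the marked main genes, at ranks 4388, 3340 and 4238. The replicate 2 point of ATPsynepsilonL, at rank 8110, also lies within their range, which reaches rank 9184 at UQCR-14.

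The unmarked genes span all complexes. Among main subunits without any region in a list were the complex I core genes ND-20, ND-30 and ND-51, the complex III core gene UQCR-C2, the complex IV genes COX4, COX6B and COX7A, and the ATP synthase genes ATPsynO, ATPsyngamma and ATPsynF. ND-75, which encodes the largest core subunit of complex I, had regions with a q-value under 0.05 in all 3 replicates (ranks 7194, 4971 and 6488, with summits 752, 747 and 727 bp upstream), while its pooled region lay 950 bp upstream at rank 17344. Beside ATPsynE and ND-MWFE, the genes with such regions in 2 replicates and no IDR summit were ATPsynG and COX7C. A gene without a region is one where no summit was listed, and with read depth unknown a weak signal there was not detectable.

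Sequence patterns were counted around the summits. Within 100 bp of the 19 summits the Sox core was found at 6 (31.6%), where 24.9% of all IDR summits and 23.5% of those within 1 kb of a start held it. The NRG element, named for its frequency near Drosophila genes of the respiratory chain, was found at 3 (15.8%; ND-SGDH, ND-MNLL and ATPsynbeta), against 5.40% and 5.73%. TATAAA was found at 10 (52.6%) against 42.2% and 43.9%, and DRE at 1 (5.26%; SdhC) against 1.79% and 3.71%. The count for DRE depended on the window, with 0 of 19 within 50 bp and 4 of 19 (21.1%) within 150 bp, against 2.66% and 5.49%. The 150 bp windows around the COX8 summits overlap, so 1 site there could count at both. GAGAG, which 18.9% of IDR summits within 1 kb of a start held, and the E-box, which 1.98% held, were found at 0 of 19. The median GC content was 32.3% at these summits and at all IDR summits. These are counts of letters in a window and do not show binding.

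The same patterns were counted in the promoters, taken as 250 bases before to 50 bases after the annotated start of the gene. DRE lay in 4 of 16 marked main subunits (25.0%), 5 of 47 unmarked ones (10.6%) and 0 of 24 paralogs, against 9.36% of all genes. The Sox core lay in 9 of 16 marked (56.3%) and 9 of 47 unmarked main subunits (19.1%), in 9 of 24 paralogs (37.5%), and in 31.3% of all genes. Over all marked genes it lay in 28.3%, below the share of all genes. GAGAG lay in 10 of 24 paralogs (41.7%), 2 of 16 marked and 8 of 47 unmarked main subunits, against 29.7% of all genes, and the NRG element in 0 of 24 paralogs, 2 of 16 and 3 of 47, against 5.18%. No test was made on these counts.

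Other genes of the pathway were marked to varying degree. Of the 14 genes with other symbols, of the chain or linked to it, 4 were marked in the IDR list (28.6%). Of all genes 22.3% were marked, and 2.41 corresponded to the length of the 14. Marked were both cytochrome c genes Cyt-c-d (rank 219, signal 1407) and Cyt-c-p (rank 511, signal 932), blw, which encodes the alpha subunit of ATP synthase (rank 1663), and Cyt-c1 of complex III (rank 4584). Unmarked were levy, cype, RFeSP, ox and sun, and also Scox, Surf1, sesB, Ant2 and porin, which are not subunits of the chain. The summits of both cytochrome c genes lay in introns, 364 and 950 bp past a start, and ranked above all 17 genes of the symbol rule. The summit of Cyt-c-d also lay in the window of CG31808, that of blw in that of CG42260 and that of Cyt-c1 in that of Klp64D. No other gene's window held the summit of Cyt-c-p. Cox17, a copper chaperone of complex IV whose lower-case symbol falls outside the rule and which was singled out after its values were seen, had an IDR region at rank 596, with 841, 572 and 628 in the replicates. Of the assembly factors with symbols of the same form, Cox10 had one at rank 4476, with 11800, 4355 and 4842 in the replicates, and Cox11 had no region. Of 14 citrate cycle genes found in the annotation, counting Pdha and Pdhb of pyruvate dehydrogenase, 6 were marked (42.9%). Of all genes 22.3% were, and 3.46 corresponded to length. The strongest were Idh3g (rank 239), kdn, which encodes citrate synthase (rank 429), Fum1 (rank 787, the region shared with ND-ASHI) and mAcon1 (rank 1163). The summits of Idh3g and mAcon1 also lay in windows of other genes, and that of kdn did not. Of 11 genes for mitochondrial DNA upkeep and its regulators 1 was marked (9.09%), mtSSB (rank 4660), where 2.30 corresponded to length. No test was made on these lists.

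Among gene groups of similar kind the share was lower than for ribosomal protein genes. In the IDR list 24 of 73 mitochondrial ribosomal protein genes (32.9%) and 62 of 88 cytosolic ones (70.5%) were marked, against 19.3% of the respiratory chain genes, where 7.50, 11.4 and 11.5 genes corresponded to length. In the replicates the shares were 32.9%, 45.2% and 46.6% for the mitochondrial and 72.7%, 78.4% and 84.1% for the cytosolic ribosomal protein genes, against 25.0%, 29.5% and 30.7%. The order of the 3 groups was thus the same in every replicate, with the 24 paralogs counted among the 88 genes. Of the main subunits alone 25.4% were marked in the IDR list, and 33.3%, 38.1% and 41.3% in replicates 1, 2 and 3. In replicate 1 this was above the share of mitochondrial ribosomal protein genes, and in replicates 2 and 3 below it. Symbols ending in -like were left out of the cytosolic group. Whether the shares differ was not tested, and expression of the genes was not measured here.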

How the data were processed

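Regions, signals and summits were used as the authors deposited them. Per the file headers and deposited descriptions, each replicate list and the pooled list holds peaks together with background as input for IDR, on dm6, and each was also made from 1 further shared file. Which aligner, peak caller and threshold the authors used is not given in the sources used here. Signal values, deposited without a stated scale, served to rank regions within a list. The deposited −log10 q-value was compared with a q-value of 0.05. Read depth is unknown, so no interval that needs it is given.

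Genes came from Ensembl release 115 (13945 protein-coding genes on 6 arms) and sequence from release 6 of the RefSeq genome. A summit inside a gene or within 1 kb upstream of its start marked that gene. The length-weighted share took the share of marked genes outside the group in each of 10 length classes, weighted by the group's genes. For subsets of the 88 respiratory chain genes and for the other pathway lists, the genes left out were the 88. Replicate differences were tested by an exact two-sided sign-flip permutation test. The assignment of summits was tested on simulated data. The genes, lists and patterns were chosen with earlier results of these data known; the 7 core subunits of complex I were grouped after their values were seen. All marked genes are named with values, unmarked ones by complex, and up to 4 marked genes of each other list. The software was Python 3.11.15 with NumPy 2.4.6 for arrays, SciPy 1.17.1 for intervals and matplotlib 3.10.9 for plots. Alternatives changed the window, the list, the replicates, the length classes and the pattern window.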

Additional observations from a re-analysis of the deposited data

How the results depend on the processing

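With the strongest 2841 regions of the IDR list 8 of the 88 genes were marked (7.43 by length; 15.2% of all genes), 8 of them main subunits (5.77) and 0 paralogs (1.62), with 5, 0, 1 and 1 in complexes I, III, IV and V. Requiring an overlap of 50% of both regions with the strongest regions of all 3 replicates left 2652 regions and gave 9 genes (6.71 by length; 13.7% of all genes), of which 8 were main subunits (5.19), with 5, 0, 2 and 1 in complexes I, III, IV and V. Leaving out 1 replicate in turn kept the IDR regions overlapped by the strongest 5683 regions of both others, and the IDR list was not remade. This left 4275 to 4395 regions and gave 10 to 12 genes (9.39 to 9.72 by length, and 18.7% to 19.2% of all genes). They comprised 9 to 11 main subunits (7.27 to 7.47) and 1 paralog. By complex there were 6 to 8 genes of complex I, 0 of complex III, 2 to 3 of complex IV and 1 of complex V. The lowest of these counts, 10 genes and 9 main subunits, was without replicate 2. These lists hold fewer regions by construction. Reaching 2 kb upstream gave 2 paralogs (3.32 by length), 2 genes of complex II and 4 of complex V; 500 bp gave 0 of complex III. Summits within 1 kb of a start gave 2 paralogs (2.66) and 2 genes of complex III. Giving each region to the nearest start, at whatever distance, gave 4 paralogs (3.07), above the length-weighted count, and 0, 2 and 1 genes of complexes II, III and V. Counting a region that touches the window, an alternative chosen after seeing the data, gave 2 genes of complex II. The mean replicate share of all 88 genes was 20.1% with the strongest 5683 regions and 47.0% with all regions, and 25.0% with each region given to the nearest start, chosen after seeing the data. The share of other genes was 22.3% with no length weighting. No paired analysis was possible because there is 1 group. The files give no read counts, so depth limits cannot be stated.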
